A study of Mus musculus with 22 samples.

Results

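The comparison described here sets livers of mice colonised with Jackson cecal contents (GF_JAX) against livers of conventional Jackson mice (JAX). All 9 libraries labelled JAX (n = 4) or GF_JAX (n = 5) were taken, of 22 in the series, and a gene was tested where its RPKM reached 1 in 4 or more of the 9, which left 11568 of 23909 gene symbols. RPKM is reads per kilobase of transcript, scaled to the reads of the library, which is meant to make levels comparable between genes. The ceiling and the length bias described below limit such comparisons here. All animals were male C57BL/6 mice and are labelled as fasted. JAX animals came from the vendor Jackson. GF_JAX animals were germ-free mice, raised without microbes, that received cecal contents of JAX mice and were sampled 4 weeks later after 16 h without food. The vendor or substrain of the germ-free mice, the age of any animal, the hours of fasting in JAX, the cages and the donor animals are not in the labels. Raising, housing, substrain and fasting length therefore cannot be told apart from colonisation history in this comparison. Germ-free mice without transfer (GF, n = 4), Taconic mice (TAC, n = 4) and recipients of Taconic cecal contents (GF_TAC, n = 5) serve below for reference. Whether each library is its own animal is not labelled, and p-values cover the spread among these libraries, part of which may be technical.

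The portal vein carries microbial products from gut to liver, among them modified bile acids, fermentation products and cell wall components. The nuclear receptors CAR and PXR sense foreign and bile-derived compounds and switch on cytochrome P450 genes. PPARa switches on fat burning during fasting, and SREBP2 switches on cholesterol synthesis. Kupffer cells are the resident macrophages that clear microbial material from portal blood. Germ-free animals are known for altered bile acid pools and altered expression of drug-metabolising enzymes, and microbiota transfer is used to ask which of these traits follow the microbes.

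The 9 libraries differed in depth and in transcript-length bias, both measured from the RPKM themselves. Depth, read from the steps that single reads leave in low RPKM, was 2.27 to 3.76 M counted reads in JAX and 1.34 to 2.83 M in GF_JAX (mean 2.99 ± 0.626 against 1.79 ± 0.633 M, SD, n = 4 and 5, exact permutation test, two-sided p = 0.0476). The length slope is the change in a library's log2(RPKM + 1), as a deviation from each gene's mean, per doubling of transcript length. It was positive in JAX (0.0562 to 0.147) and in GF_JAX 1 (0.153) and GF_JAX 4 (0.188). It was negative in GF_JAX 2 (-0.0769), GF_JAX 3 (-0.182) and GF_JAX 5 (-0.129). GF_JAX 1 and GF_JAX 4 thus share the length slope of JAX and are given beside the other 3 throughout, as library type. The most abundant genes had a ceiling that moved with depth, so their RPKM read higher in shallower libraries. Alb was at 506 RPKM in JAX 2 (3.76 M reads) and at 1337 RPKM in GF_JAX 3 (1.34 M). Alb, Apoa1 and Apoe varied by 35.8%, 36.4% and 37.5% (coefficient of variation over the 9 libraries), and by 3.08%, 2.28% and 1.48% once multiplied by relative depth. All 13 hepatocyte markers with deposited values met the filter for testing, and the summed RPKM of the list was 4628 to 7030 in JAX and 5811 to 10760 in GF_JAX. Pearson r of log2 values was 0.941 to 0.983 within the groups and 0.943 to 0.973 between them.

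**Figure D1:**
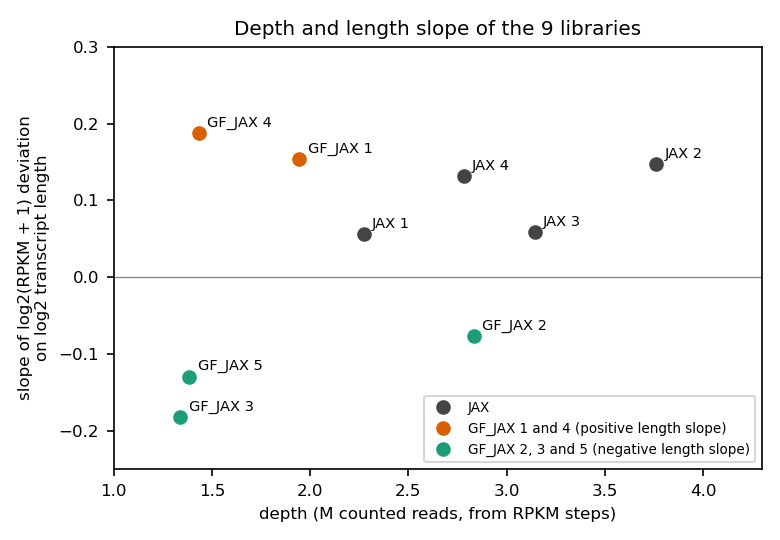
Depth (x axis, M counted reads) and slope of expression on transcript length (y axis, log2 per doubling of length) of the 9 libraries, 1 point each. GF_JAX 1 and GF_JAX 4 lie above 0 with the 4 JAX libraries, whereas GF_JAX 2, GF_JAX 3 and GF_JAX 5 lie below 0.

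After 4 weeks with Jackson microbes the recipients' livers differed from those of JAX mice in 536 genes (limma on log2(RPKM + 1), Benjamini-Hochberg adjusted p under 0.05 over 11568 genes). These are 4.63% of the genes tested. Of them 280 were higher in GF_JAX (2.42%) and 256 lower (2.21%), and 163 differed by at least 1 on the log2 scale (78 higher, 85 lower). No overlap between the libraries of both groups was seen in 514 of the 536, against 1322 of all genes tested (11.4%). The genes with the largest differences given below were picked among these 514, so their lack of overlap follows from that choice. Rescaling every library to a common sum (TPM) moved the median of all genes from -0.022 to -0.21 and gave 182 higher and 648 lower genes, so splits by direction below hold relative to that shift. With library type as a term 165 of the 536 genes passed again in the same direction (1.43% of genes tested), 81 higher and 84 lower. In all 536 the mean of GF_JAX 1 and GF_JAX 4 lay on the same side of JAX as the call, although these libraries also entered it. With depth as a term the 536 kept their sign but 17 passed. Adjusted p-values with library type and with depth as terms follow the main one for each gene given in full. The filter was met through 1 group alone by 21 of the 536, 12 with no JAX and 9 with no GF_JAX library at an RPKM of 1, and such genes had to differ. Genes that met it mainly through 1 group, such as Cntnap1 and Lepr below, are not in that count. The count was 160 without JAX 1, 256 without JAX 2, 168 without JAX 3, 129 without JAX 4 and 297 without GF_JAX 5, and 121 genes passed whichever library was left out. Length bias showed in the 3 libraries of negative slope. Their median difference from JAX was 0.25 in the shortest of 3 equal bins of transcript length and -0.21 in the longest, against -0.065 and 0.054 for GF_JAX 1 and GF_JAX 4. In the shortest bin 152 genes were called higher and 72 lower, and in the longest 40 and 78. The part of length bias and depth in single calls was not tested beyond these fits.

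Drug-metabolising enzymes were higher in GF_JAX, among them Cyp2b10, the named gene with the largest increase. Of 26 tested CAR and PXR targets, 10 were higher in GF_JAX and none lower, and 9 of the 10 also passed with library type as a term. The list's median log2 difference was 0.55 (all genes tested -0.022), 0.57 in GF_JAX 1 and GF_JAX 4 and 0.61 in the other 3, and 0.17 with depth as a term. Cyp2b10, the P450 that serves as the classical readout of CAR, stood at 13.1, 4.48, 14.5 and 14.8 RPKM in JAX 1 to 4 and at 272, 172, 60.02, 300.4 and 341 RPKM in GF_JAX 1 to 5. Every recipient lay above every JAX library, the lowest being GF_JAX 3 (log2 difference 4.07 ± 0.49 (SE), adjusted p = 0.00141, 0.00449 with library type and 0.124 with depth as a term). GF libraries, with no microbes at all, averaged 234 ± 82.8 RPKM (SD, n = 4), and TAC and GF_TAC 13.5 ± 9.07 and 241 ± 80.95 RPKM. Cyp2c55, another inducible P450, was at 1.57, 3.25, 1.13 and 1.65 RPKM in JAX and 26.2, 6.11, 19.4, 14.9 and 12.5 RPKM in GF_JAX, again without overlap (log2 difference 2.45 ± 0.35 (SE), adjusted p = 0.00347, 0.00665 with library type and 0.207 with depth as a term). Gstm3, a glutathione transferase that detoxifies electrophiles, was at 30.1, 36.6, 33.4 and 33.8 RPKM in JAX and 146, 80.9, 233, 119 and 190.5 RPKM in GF_JAX. The groups were separate here too (log2 difference 2.08 ± 0.25 (SE), adjusted p = 0.00141, 0.0140 with library type and 0.136 with depth as a term). Cyp2c29 (1.58, adjusted p = 0.000732), Cyp2c54 (1.26, adjusted p = 0.00141), Cyp2c50 (1.18, adjusted p = 0.00176), Cyp2c37 (1.18, 0.00295), the carboxylesterase Ces2c (1.39, 0.00214), Cyp2a5 (1.06, 0.0107) and the retinal dehydrogenase Aldh1a1 (0.72, 0.0366) completed the 10. The receptors themselves did not pass, with CAR (Nr1i3) at 0.37 and PXR (Nr1i2) at 0.32, and neither did Cyp3a11 (0.54), the main PXR target. The count stayed at 9 to 11 whichever library was left out. The Cyp2b, Cyp2c, Cyp2a and Ces2 families hold near-identical copies, so reads may have been split or misplaced among them. The pseudogene Cyp2c53-ps, listed at 0 in all JAX and at 3.78, 3.63, 3.84, 3.08 and 4.77 RPKM in GF_JAX, is uncertain for that reason. It met the filter only through the recipients, so its difference is given without a test.

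The aryl hydrocarbon receptor (AHR), which binds dietary and microbial indoles, has Cyp1a1 and Cyp1a2 as targets. Of 6 AHR targets that met the filter Cyp1a2 was called higher. It stood at 244, 206, 218 and 211 RPKM in JAX and 424, 381, 642, 561 and 634 RPKM in GF_JAX. No recipient fell within the JAX range (log2 difference 1.23 ± 0.17 (SE), adjusted p = 0.00308, 0.0241 with library type and 0.0742 with depth as a term, where the difference was 0.75). Cyp1a1 was far lower in level, 0, 0.3997, 0.598 and 0.405 RPKM in JAX and 2.9, 1.59, 1.68, 2.1 and 1.63 RPKM in GF_JAX, values that rest on few reads. It met the filter only through the recipients, so its difference is a description and its call is not counted here. Among NRF2 targets, genes of the oxidative stress response, Gstm3 was the 1 called of 16 (median 0.31), and 3 others passed with library type as a term.

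Male-biased liver genes, which pulsatile growth hormone keeps high in males, were higher in 9 of 24 tested members and lower in none. Their median was 0.68, 0.55 in GF_JAX 1 and GF_JAX 4 and 0.71 in the other 3, and 0.31 with depth as a term. Of the 9, 5 also passed with library type as a term. Hsd3b5, a steroid-reducing enzyme of male liver, stood at 6.56, 24.5, 8.46 and 8.39 RPKM in JAX 1 to 4 and 143, 168, 332, 95.1 and 134 RPKM in GF_JAX 1 to 5. GF_JAX 3 was highest, and the lowest recipient, GF_JAX 4, still lay well above JAX 2, the highest JAX library (log2 difference 3.81 ± 0.39 (SE), adjusted p = 0.000602, 0.00662 with library type and 0.0368 with depth as a term). Selenbp2, a selenium-binding protein, was at 85.1, 92.4, 87.3 and 68.8 RPKM in JAX and 303, 292, 569, 345 and 326 RPKM in GF_JAX, with GF_JAX 3 apart at the top (log2 difference 2.09 ± 0.19 (SE), adjusted p = 0.000279, 0.00325 with library type and 0.0368 with depth as a term). Ugt2b1, a glucuronosyltransferase (0.83, adjusted p = 0.00347), Cyp7b1 (1.296, adjusted p = 0.00743), the complement components C6 (0.56, 0.0155) and C8b (0.53, 0.0375), Cyp4a12b (0.95, 0.0217), Susd4 (0.86, 0.0294) and Elovl3 (0.68, 0.0440) were the other members called. The count of the list was 5, 4, 4 and 14 without JAX 1, JAX 3, JAX 4 and GF_JAX 2. Of 4 female-biased genes tested 2 were lower, the flavin monooxygenase Fmo2 (-1.07, adjusted p = 0.0211) and the acyl-CoA thioesterase Acot3 (-2.26, adjusted p = 0.0367). Neither passed with library type (0.1005 and 0.151), with depth (0.417 and 0.326) or without JAX 4 (0.0877 and 0.112, adjusted p). The growth hormone receptor Ghr was higher (0.44, adjusted p = 0.0375) as the 1 called of 11 genes of that axis (median 0.26), with an adjusted p of 0.137 without JAX 4. Igf1, its main output, stood at 0.57 without passing.

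In bile acid synthesis 3 of 16 genes were higher and 1 lower (median 0.32, 0.0065 with depth as a term). Cyp2c70, which makes the muricholic acids of mouse bile, stood at 61.7, 40.3, 42.1 and 41.5 RPKM in JAX and 206, 199, 367, 203 and 206 RPKM in GF_JAX. JAX 1 and GF_JAX 3 were the highest of their groups, and the groups stayed apart (log2 difference 2.301 ± 0.20 (SE), adjusted p = 0.000236, 0.00281 with library type and 0.0330 with depth as a term). GF averaged 245 ± 20.9 RPKM. Cyp7b1, the oxysterol hydroxylase of the alternative pathway, was at 93.99, 112, 84.9 and 64.1 RPKM in JAX and 168, 227, 328, 192 and 192 RPKM in GF_JAX, with no overlap (adjusted p = 0.00743, 0.0474 with library type and 0.199 with depth as a term). Akr1c6, which reduces steroids (1.07, adjusted p = 0.00333), was higher as well, while the hydroxylase Cyp39a1 was lower (-1.19, adjusted p = 0.0432). Cyp7a1, the rate-limiting enzyme of the classical pathway, read 81.2, 36.9, 29.2 and 70.7 RPKM in JAX and 13.3, 12.04, 41.0, 23.5 and 19.5 RPKM in GF_JAX. JAX 2 and JAX 3 lay below the highest recipient, GF_JAX 3, so the groups overlapped, and the difference did not pass (log2 difference -1.29 ± 0.37 (SE), adjusted p = 0.0767, 0.141 with library type and 0.0637 with depth as a term). Cyp8b1, the sterol hydroxylase needed for cholic acid, stood at 411 ± 54.9 against 374 ± 47.8 RPKM (-0.14, adjusted p = 0.574, 0.856 with library type and 0.155 with depth as a term). The Cyp8b1 difference was -0.47 with depth as a term and -0.48 with a correction for reads that share start positions. None of 15 tested bile acid transporters and FXR targets passed (median 0.17), with the FXR target Nr0b2 (SHP) at 1.24 and the export pump Abcb11 at 0.67. With library type as a term 4 of the 15 passed, the export pumps Abcb11 (adjusted p = 0.0350), Abcc2 (0.00281) and Abcc3 (0.0499) and the uptake carrier Slco1b2 (0.0212).

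Thrsp and Cidec, a pair of genes of fat metabolism, were called in opposite directions. Thrsp, a lipogenic protein induced by carbohydrate, was at 50.99, 34.0, 43.8 and 44.8 RPKM in JAX and 139, 112, 469, 121 and 185 RPKM in GF_JAX, where GF_JAX 3 stood out (log2 difference 2.0 ± 0.36 (SE), adjusted p = 0.0127, 0.0785 with library type and 0.427 with depth as a term, where the difference was 1.22). Cidec, which enlarges lipid droplets, gave the largest decrease, with 103, 105, 105 and 113 RPKM in JAX and 14.1, 5.79, 5.44, 6.36 and 3.07 RPKM in GF_JAX. GF_JAX 1 was the highest recipient and remained far under every JAX library (log2 difference -3.89 ± 0.29 (SE), adjusted p = 5.50e-05, 0.000685 with library type and 0.0191 with depth as a term). GF averaged 4.25 ± 1.61 RPKM, TAC 48.2 ± 18.9 and GF_TAC 6.703 ± 5.09. Cidec also belongs to the adipose list, whose defining genes Adipoq, Plin1, Lep and Retn did not reach the level needed for testing, while Fabp4 (0.48) and Cfd (-1.04) did not pass. Pck1 and G6pc, which make glucose during fasting, stood at 0.47 and 0.32 without passing.

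Part of the PPARa targets, which fasting induces, were lower in GF_JAX. Of 27 genes of fatty acid oxidation and PPARa 6 were lower and none higher, with a median of -0.10 (0.0044 in GF_JAX 1 and GF_JAX 4, -0.18 in the other 3, -0.30 with depth as a term). Acot2, a mitochondrial acyl-CoA thioesterase, stood at 57.8, 61.7, 51.3 and 59.6 RPKM in JAX and 22.04, 10.6, 10.2, 15.6 and 17.4 RPKM in GF_JAX without overlap (log2 difference -1.91 ± 0.20 (SE), adjusted p = 0.000618, 0.00449 with library type and 0.0616 with depth as a term). Pdk4, which blocks glucose oxidation during fasting, was at 20.3, 25.9, 17.7 and 16.8 RPKM in JAX and 8.19, 4.44, 5.43, 6.64 and 4.64 RPKM in GF_JAX, again without overlap (log2 difference -1.63 ± 0.19 (SE), adjusted p = 0.00108, 0.00654 with library type and 0.0926 with depth as a term). Fgf21, a hormone that liver releases on fasting, was at 66.5, 63.3, 67.2 and 54.3 RPKM in JAX and 30.9, 24.3, 2.75, 7.72 and 11.5 RPKM in GF_JAX. The recipients ranged widely yet all lay lower (log2 difference -2.32 ± 0.51 (SE), adjusted p = 0.0302, 0.138 with library type and 0.649 with depth as a term, where the difference was -1.12; adjusted p 0.0928 without JAX 4). Vnn1, a pantetheinase (-1.15, adjusted p = 0.0279), Ehhadh of the peroxisome (-0.72, 0.0296) and Acot1 (-0.97, 0.0478), a close copy of Acot2, were lower too. Genes of the main pathway were among those that did not pass. Cpt1a, which admits fatty acids to mitochondria, stood at -0.65 and the dehydrogenase Acadm at -0.16. The list's count was 2, 2, 2, 2 and 2 without JAX 1, JAX 2, JAX 3, JAX 4 and GF_JAX 5. Only the recipients' hours of fasting are labelled, so a difference in fasting length cannot be told apart from the rest of the comparison here.

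**Figure D2:**
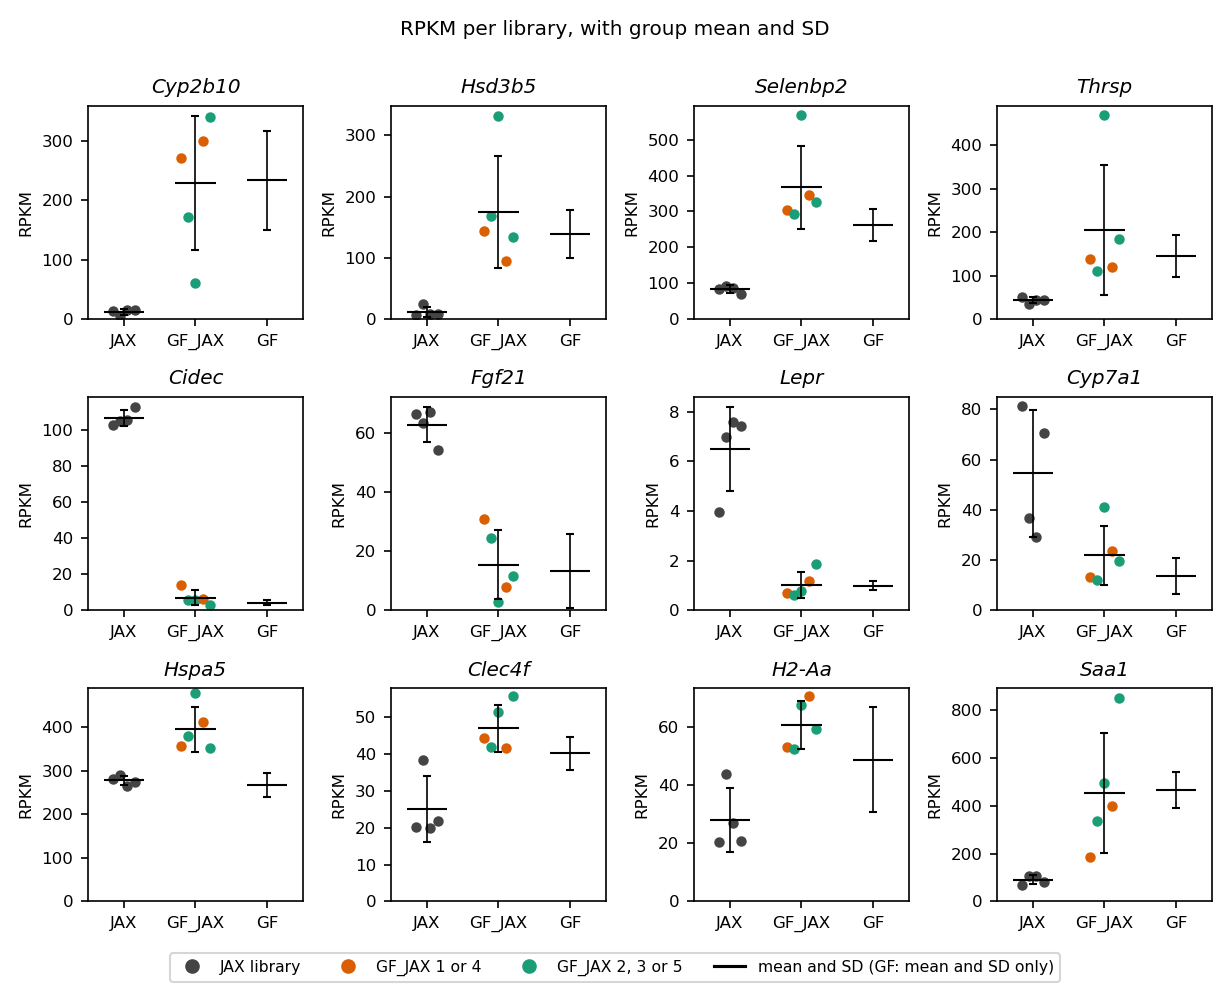
RPKM (y axis, linear, from 0) of 12 genes in each JAX and GF_JAX library (points, GF_JAX 1 and GF_JAX 4 in orange), with mean and SD of each group and of GF (n = 4, mean and SD only). Points of JAX and GF_JAX do not overlap in any panel but that of Cyp7a1, and the GF mean of Cidec (4.25 RPKM) lies by the recipients, while that of Hspa5 (268 RPKM) lies by JAX.

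Lipid synthesis was mixed. Of 19 genes of fatty acid and triglyceride synthesis 3 were higher (Thrsp, the triglyceride synthase Dgat2 at 0.52, adjusted p = 0.0272, and Elovl3) and 2 lower, the elongase Elovl5 (-0.92, adjusted p = 0.0210) and Acacb (-1.23, 0.0425), whose product malonyl-CoA restrains fat burning (median -0.053). None of the 5 passed with library type as a term, and the count was 1, 2, 1, 1 and 3 without JAX 1, JAX 2, JAX 3, JAX 4 and GF_JAX 5. Of 24 genes of cholesterol synthesis and uptake 4 were higher and none lower (median 0.69, 0.86 in GF_JAX 1 and GF_JAX 4, 0.71 in the other 3). Fdps, which makes farnesyl pyrophosphate, stood at 94.2, 73.8, 75.3 and 77.6 RPKM in JAX and 204, 114, 479, 229 and 229 RPKM in GF_JAX, without overlap but with a wide spread among recipients (log2 difference 1.49 ± 0.31 (SE), adjusted p = 0.0248, 0.0936 with library type and 0.595 with depth as a term, where the difference was 0.61). Mvd and Mvk, enzymes of the mevalonate pathway, were at 1.92 (adjusted p = 0.0279) and 1.04 (0.0455), and Insig1, a sterol-responsive brake of SREBP2, at 1.09, adjusted p = 0.0367. The synthesis enzymes Sqle (1.6) and Msmo1 (1.39) did not pass. None of the 4 passed with library type as a term, the list's median was 0.14 with depth as a term, and its count was 0, 1, 0, 0, 13 and 2 without JAX 1, JAX 2, JAX 3, JAX 4, GF_JAX 2 and GF_JAX 5.

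Chaperones of the endoplasmic reticulum (ER), which fold secreted proteins and rise in the unfolded protein response, lay higher in GF_JAX throughout. All 23 tested genes of the list had a positive difference, 10 of them past the threshold, with a median of 0.54 (0.39 in GF_JAX 1 and GF_JAX 4, 0.63 in the other 3, 0.62 with depth as a term). The count was 1, 1 and 0 without JAX 1, JAX 3 and JAX 4, and Pdia6 was the 1 of the 10 that passed with library type as a term (adjusted p = 0.0434). Under the common-sum scaling 21 of 23 stayed positive, with 3 past the threshold. The promoters of these genes are known for the ER stress response element, bound by ATF6 with NF-Y. The exact motif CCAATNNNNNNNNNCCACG was searched on both strands in RefSeq promoters (GRCm38.p6, 250 bases before to 50 after the start) and was found in 9 of the 19 list members with a promoter in the table. These were 5 of 8 members called higher and 4 of 11 not called, against 37 of 27025 genes overall (0.137%) and 15 of 8755 tested genes (0.171%). Both backgrounds include the list members. The list was made of genes known for this response, so its share above the background follows from that choice and is not a result about the calls. The windows of 3 members called higher and of Syvn1, which did not pass, are shown to set the motif beside the values, with its conserved ends in capitals.
Hspa5, chr2:34771995-34772073 (+ strand): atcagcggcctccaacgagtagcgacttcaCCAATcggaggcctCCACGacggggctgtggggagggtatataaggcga
Pdia6, chr12:17266461-17266539 (+ strand): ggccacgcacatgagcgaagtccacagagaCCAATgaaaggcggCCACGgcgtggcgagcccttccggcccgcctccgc
Dnajc3, chr14:118937797-118937875 (+ strand): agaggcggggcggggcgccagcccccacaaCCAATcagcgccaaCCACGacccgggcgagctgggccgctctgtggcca
Syvn1, chr19:6046502-6046580 (+ strand): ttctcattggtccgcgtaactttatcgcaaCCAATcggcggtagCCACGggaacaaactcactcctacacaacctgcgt
A match describes the letters of the window and is not a measured binding site.

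Hspa5 (BiP), the main ER chaperone, stood at 282, 292, 267 and 274 RPKM in JAX 1 to 4 and 357, 379.9, 478, 412 and 353 RPKM in GF_JAX 1 to 5. The lowest recipient, GF_JAX 5, lay above the highest JAX library (log2 difference 0.50 ± 0.12 (SE), adjusted p = 0.0386, 0.1201 with library type and 0.373 with depth as a term; adjusted p 0.142 without JAX 4). Pdia6, a disulfide isomerase, was at 133, 139, 127 and 110.0 RPKM in JAX and 192, 236, 285, 182 and 246 RPKM in GF_JAX. The groups did not overlap, and GF_JAX 1 and GF_JAX 4 were closest to JAX (log2 difference 0.83 ± 0.14 (SE), adjusted p = 0.0108, 0.0434 with library type and 0.2298 with depth as a term; adjusted p 0.0558 without JAX 4). Calr, a calcium-binding lectin chaperone (0.73, adjusted p = 0.0218), Manf (0.85, adjusted p = 0.0247), the ER Hsp90 Hsp90b1 (0.54, adjusted p = 0.0248), the co-chaperone Dnajc3 (0.39, adjusted p = 0.0318), Herpud1 (0.61, 0.0345), Pdia3 (0.52, 0.0354), Sdf2l1 (1.44, 0.0425) and Ero1lb (0.75, 0.0433) were higher too. Hyou1 (0.75, adjusted p = 0.0533), Pdia4 (0.47, adjusted p = 0.0540) and the transcription factor Xbp1 (0.28) did not pass. Of 13 ATF4 and amino acid response genes none passed (median 0.16), with Ddit3 (CHOP) at -0.048. Germ-free livers differed from gene to gene in where they stood. Hspa5 averaged 268 ± 27.2 RPKM in GF, 278 ± 10.8 in JAX and 396 ± 51.6 in GF_JAX, and Hyou1 60.5 ± 10.2, 63.7 ± 18.8 and 106 ± 18.04 RPKM. Manf was at 88.5 ± 14.2 RPKM in GF, 59.99 ± 10.7 in JAX and 111 ± 27.1 in GF_JAX, where the GF libraries (70.9 to 105) overlapped the recipients (84.99 to 150.2). Pdia6 in GF (148 to 179 RPKM) lay above all JAX and below all GF_JAX libraries.

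The Taconic pair of groups ran the other way for these genes. Hspa5 averaged 409 ± 34.2 RPKM in TAC and 244 ± 19.5 in GF_TAC (log2 difference -0.74, adjusted p = 0.000177). In GF_TAC minus TAC, which shares no library with GF_JAX minus JAX, 18 of the 23 ER genes were lower and none higher (median -0.41). That stands against a background of 4119 genes called there (35.6%; 17.3% higher and 18.3% lower), and all TAC libraries had a positive and all GF_TAC libraries a negative length slope, so group and library type cannot be told apart in that pair. The difference between both contrasts was tested directly over 18 libraries, in a fit without library type or depth as a term. Library type changed in full within the Taconic pair and in part within the Jackson pair. It therefore enters this difference and was not separated from donor. The test passed for 203 of all genes (1.75%) and for 18 of the 23 ER genes, all with the larger value in the Jackson pair. For Hspa5 the difference was 1.24 ± 0.13 (SE, adjusted p = 0.000267), for Hyou1 1.89 ± 0.24 (0.000603), for Hsp90b1 1.02 ± 0.13 (0.000603) and for Pdia4 1.16 ± 0.14 (0.000596). These genes are among the 6 picked for the smallest p in this same test, so their low p-values follow from that choice. By mean level Hspa5 in GF_JAX lay next to TAC, and Hspa5 in GF_TAC next to GF and JAX. Immediate early and heat shock genes can respond to handling. Among 23 of them the 1 called in GF_JAX minus JAX was Hspa1b, which was lower (-1.08, adjusted p = 0.0406, and near-identical to Hspa1a at -1.31), with a list median of 0.12. The difference between the contrasts passed for 6 of these 23, and whether handling had a part in the ER genes was not tested.

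**Figure D3:**
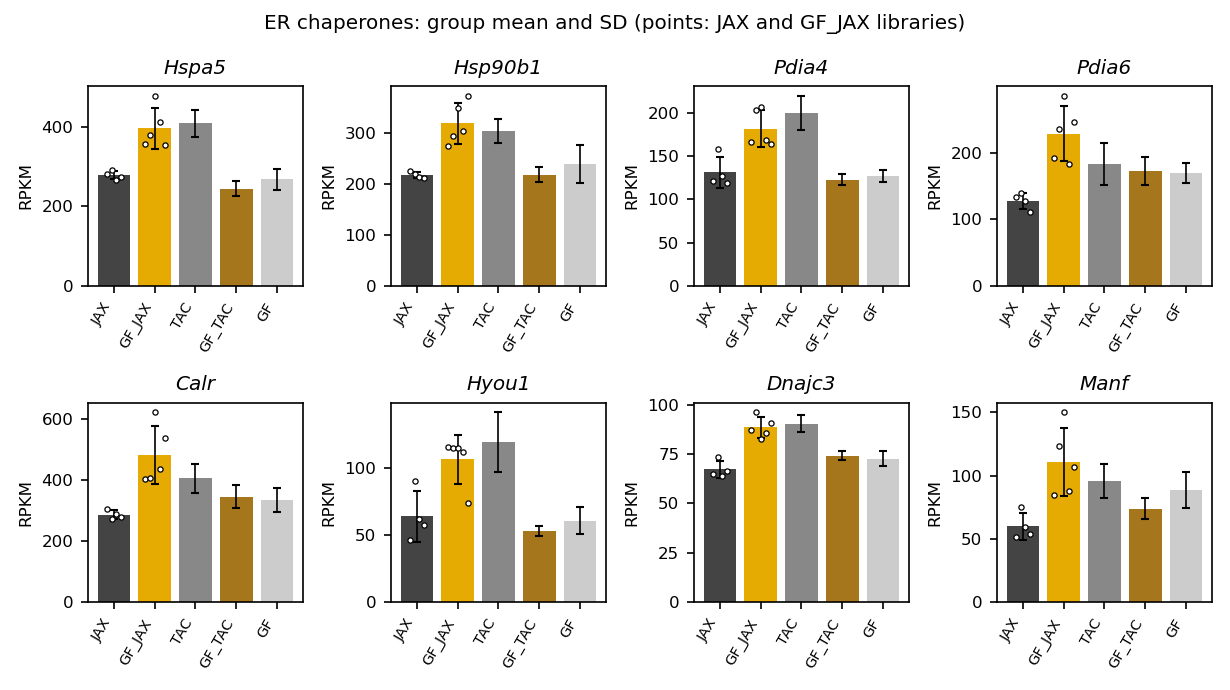
RPKM (y axis, from 0) of 8 ER chaperone genes as mean and SD (bars and error bars) in JAX (n = 4), GF_JAX (n = 5), TAC (n = 4), GF_TAC (n = 5) and GF (n = 4), with points for the JAX and GF_JAX libraries. Hspa5 averages 396 RPKM in GF_JAX and 409 in TAC, against 278 in JAX, 244 in GF_TAC and 268 in GF.

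Acute phase proteins, which the liver secretes in inflammation, were higher in 8 of 28 tested members and lower in none (median 0.56, 0.05 with depth as a term). Saa1, the main serum amyloid, stood at 69.1, 107, 105 and 81.7 RPKM in JAX and 187, 336, 497, 399 and 854 RPKM in GF_JAX. GF_JAX 1 was the lowest recipient and GF_JAX 5 the highest, and none reached into the JAX range (log2 difference 2.16 ± 0.35 (SE), adjusted p = 0.00801, 0.0508 with library type and 0.296 with depth as a term). Saa4, a constitutive serum amyloid, was at 97.8, 106, 101 and 93.3 RPKM in JAX and 184, 238, 267, 196 and 293 RPKM in GF_JAX, without overlap (log2 difference 1.21 ± 0.14 (SE), adjusted p = 0.00117, 0.00305 with library type and 0.0926 with depth as a term). Orm1 (0.81, 0.0410), Orm2 (1.904, adjusted p = 0.0165), Orm3 (3.19, 0.0243), Saa2 (1.93, 0.0336), the pentraxin Crp (0.54, 0.0258) and Steap4 (0.75, 0.0377) were higher too, the Saa and Orm genes being close copies of each other. Haptoglobin Hp (0.64), the fibrinogen chain Fgb (0.60) and Lcn2 (1.098) did not pass. GF averaged 465 ± 75.4 RPKM for Saa1. The count was 2, 4, 4, 2, 14 and 5 without JAX 1, JAX 2, JAX 3, JAX 4, GF_JAX 2 and GF_JAX 5. Hamp2, a hepcidin copy, was the 1 called of 15 genes of iron handling (1.64, adjusted p = 0.0294, list median 0.20).

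Kupffer cell and macrophage markers lay higher in GF_JAX in 15 of 15 tested genes, 7 of them past the threshold (median 0.73, 0.74 in GF_JAX 1 and GF_JAX 4, 0.70 in the other 3, 0.81 with depth as a term). In bulk liver more cells of a type and more RNA per cell cannot be told apart. Clec4f, a lectin of Kupffer cells, stood at 20.2, 38.5, 19.9 and 21.7 RPKM in JAX and 44.3, 41.8, 51.3, 41.6 and 55.9 RPKM in GF_JAX. JAX 2 lay apart from the other JAX libraries and close to the recipients (log2 difference 0.92 ± 0.19 (SE), adjusted p = 0.0225, 0.0957 with library type and 0.317 with depth as a term; adjusted p 0.0937 without JAX 4). The complement chains C1qa (0.91, 0.0348), C1qb (0.98, adjusted p = 0.0346) and C1qc (0.79, adjusted p = 0.0229), Cd68 (0.71, 0.0411), Mpeg1 (0.69, 0.0425) and lysozyme Lyz2 (0.73, 0.0443) were higher too, while Vsig4 (1.01), Cd5l (0.62), Timd4 (0.50) and Marco (0.093) did not pass. The count was 0, 0, 0, 4, 2 and 1 without JAX 1, JAX 3, JAX 4, GF_JAX 2, GF_JAX 3 and GF_JAX 5, and 0 with library type as a term or with the common-sum scaling. Class II antigen presentation was higher through 4 of 18 genes of that list (median 0.50), and all 4 also passed with library type as a term. H2-Aa, a class II chain, stood at 20.4, 43.98, 26.8 and 20.8 RPKM in JAX and 53.1, 52.5, 67.7, 70.6 and 59.4 RPKM in GF_JAX, where JAX 2 again came nearest to the recipients (log2 difference 1.15 ± 0.20 (SE), adjusted p = 0.0129, 0.0480 with library type and 0.2298 with depth as a term). Its partners H2-Ab1 (0.89, 0.0283), H2-Eb1 (0.99, adjusted p = 0.0145) and the invariant chain Cd74 (0.98, adjusted p = 0.0107) were higher as well. The class I genes H2-K1 (0.52) and B2m (0.65) did not pass. The count of the whole list was 2, 0 and 8 without JAX 1, JAX 4 and GF_JAX 2. The GF mean of H2-Aa was 48.7 ± 18.01 RPKM, and in the Taconic pair it averaged 25.2 ± 9.68 against 57.1 ± 12.3 RPKM.

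Among genes that sense microbes or viruses a few were lower and the rest did not pass. Tlr12, a receptor for parasite profilin, stood at 30.7, 26.6, 21.2 and 35.4 RPKM in JAX and 7.55, 4.86, 6.17, 4.06 and 7.29 RPKM in GF_JAX, without overlap (log2 difference -2.08 ± 0.19 (SE), adjusted p = 0.000279, 0.00281 with library type and 0.0303 with depth as a term). It was the 1 called of 9 genes of Toll-like receptors and LPS sensing (median -0.27), among which Cd14 (0.67) and Tlr5 (-0.53) did not pass and Tlr2, Tlr4 and Tlr9 were too low to test. Of 30 interferon-stimulated genes 2 were lower, Dhx58 (LGP2, a helper of viral RNA sensors, -0.99, adjusted p = 0.00668) and Usp18, which dampens interferon signalling (-0.82, adjusted p = 0.0310), with a list median of -0.15. Their count was 1, 1, 1, 1, 1 and 1 without JAX 1, JAX 2, JAX 3, JAX 4, GF_JAX 2 and GF_JAX 3. Ifit1 (-0.59) and Isg15 (-0.19) did not pass, but did with library type as a term (adjusted p = 0.0301 and 0.0398).

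Several of the steepest decreases lay outside these pathways. Lepr, the leptin receptor, stood at 3.97, 7.003, 7.59 and 7.45 RPKM in JAX and 0.709, 0.601, 0.762, 1.19 and 1.88 RPKM in GF_JAX. JAX 1 was the lowest of its group and still above every recipient (log2 difference -1.89 ± 0.23 (SE), adjusted p = 0.00141, 0.0110 with library type and 0.0863 with depth as a term). GF averaged 0.983 ± 0.178, TAC 1.7 ± 0.108 and GF_TAC 0.937 ± 0.1802 RPKM, JAX having the highest mean of the 5 groups. Lamb3, a laminin chain, was at 19.2, 28.7, 25.8 and 23.97 RPKM in JAX and 3.67, 2.44, 4.09, 3.33 and 3.27 RPKM in GF_JAX (log2 difference -2.54 ± 0.16 (SE), adjusted p = 3.86e-05, 0.000685 with library type and 0.00634 with depth as a term). Cgref1, a secreted regulator of growth, was at 21.7, 18.7, 25.4 and 19.5 and 2.08, 3.03, 1.304, 2.44 and 3.15 RPKM (log2 difference -2.74 ± 0.19 (SE), adjusted p = 3.86e-05, 0.000685 with library type and 0.00955 with depth as a term). The groups did not overlap for either gene, and their differences were of like size in GF_JAX 1 and GF_JAX 4 (-2.48 and -2.77) and the other 3 (-2.58 and -2.71). Cntnap1, a contactin-associated membrane protein, was at 10.5, 8.14, 11.9 and 13.9 RPKM in JAX and 1.45, 0.808, 0.9202, 0.738 and 0.636 in GF_JAX (log2 difference -2.66 ± 0.18 (SE), adjusted p = 3.86e-05, 0.000722 with library type and 0.00794 with depth as a term). Gal3st1, which makes sulfatide (-2.41, adjusted p = 0.000279), Itpka, an inositol kinase (-1.96, adjusted p = 0.00141), and Impa2, an inositol monophosphatase (-1.94, adjusted p = 0.000732), were lower as well. All 7 of these genes passed whichever library was left out and with library type as a term. For Lamb3, Cgref1, Cntnap1 and Gal3st1 the pass with library type was part of how they were picked. Cntnap1 and Lepr met the filter through JAX, with most recipients under an RPKM of 1, so their tests are not free of that choice.

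Genes that tell C57BL/6 substrains apart bear on the recipients' background. Nnt, the transhydrogenase of mitochondria, partly deleted in C57BL/6J, the substrain of Jackson, stood at 42.8, 42.3, 41.5 and 44.1 RPKM in JAX and 84.1, 57.1, 55.7, 88.4 and 51.5 RPKM in GF_JAX. All recipients were above JAX, GF_JAX 1 and GF_JAX 4 most (log2 difference 0.998, and 0.35 in the other 3). The difference did not pass (0.61, adjusted p = 0.0599). It passed with library type as a term (adjusted p = 0.000685) but not with depth as a term (adjusted p = 0.511). Nnt averaged 57.04 ± 3.398 RPKM in GF, 82.2 ± 8.52 in TAC and 59.9 ± 3.91 in GF_TAC. Wdfy1 (0.43, adjusted p = 0.2698) and Entpd4 (0.015, adjusted p = 0.959, of either sign across fits), the other markers tested, did not pass. Wdfy1 averaged 7.74 ± 2.05 RPKM in JAX, 10.99 ± 3.77 in GF_JAX and 23.9 ± 5.85 in TAC. Entpd4 averaged 39.99 ± 5.64, 40.4 ± 5.33 and 21.9 ± 0.959 RPKM in the same groups. By the means of Wdfy1 and Entpd4 the recipients lay nearer to JAX than to TAC. Nnt did not share this. Its GF_JAX mean of 67.4 ± 17.4 RPKM lay between JAX (42.7 ± 1.1) and TAC, nearer to TAC. The labels give no substrain for the recipients, and its part in the calls was not tested.

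Lists kept as signs of RNA and library quality moved in part with the comparison. None of 30 ribosomal protein genes passed, yet all 30 lay higher (median 0.48), and of 30 respiratory chain genes 28 did (median 0.37). Of 13 hepatocyte markers, among them Alb, Apoa1 and Apoe, whose RPKM followed depth as described above, 12 lay higher without passing (median 0.69). With depth as a term these medians were 0.045, 0.038 and 0.019, and those of the ER and Kupffer lists 0.62 and 0.81, although none of the 10 ER and 7 Kupffer calls passed in that fit. The stellate and endothelial medians were 0.66 and 0.41 in that fit. Depth also differed between the groups, so the fit does not separate its part in any list from that of group. In amino acid breakdown and the urea cycle 3 of 24 genes were higher, among them Prodh, which degrades proline (0.58, adjusted p = 0.0381), and Otc of the urea cycle (0.55, adjusted p = 0.0381). That list's median was 0.31 and -0.042 with depth as a term, and its count 1, 0, 0, 0, 6, 0 and 0 without JAX 1, JAX 2, JAX 3, JAX 4, GF_JAX 2, GF_JAX 3 and GF_JAX 5. The core clock genes Arntl (-0.36) and Per2 (0.21) did not pass. None of 15 cell cycle genes passed (median 0.039).

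Markers of other cell types were called in a few cases. Of 13 sinusoidal endothelial genes 2 were higher, the Fc receptor Fcgr2b (0.51, adjusted p = 0.0207) and Eng (0.49, adjusted p = 0.0318), with a median of 0.39 and summed levels of 188 to 247 RPKM in JAX and 253 to 305 in GF_JAX. Their count was 0, 1, 0, 0, 1, 1, 4 and 1 without JAX 1, JAX 2, JAX 3, JAX 4, GF_JAX 2, GF_JAX 3, GF_JAX 4 and GF_JAX 5. None of 14 stellate cell and fibroblast genes passed (median 0.37). The cholangiocyte keratins Krt19 (1.09) and Krt7 (0.90) did not pass (median of the list 0.037). T and NK cell, B and plasma cell, neutrophil and erythroid lists had 3, 2, 3 and 3 tested members and none passed. Pancreas, gut and skeletal muscle lists had 2, 2 and 1 tested members, none passing.

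**Figure D4:**
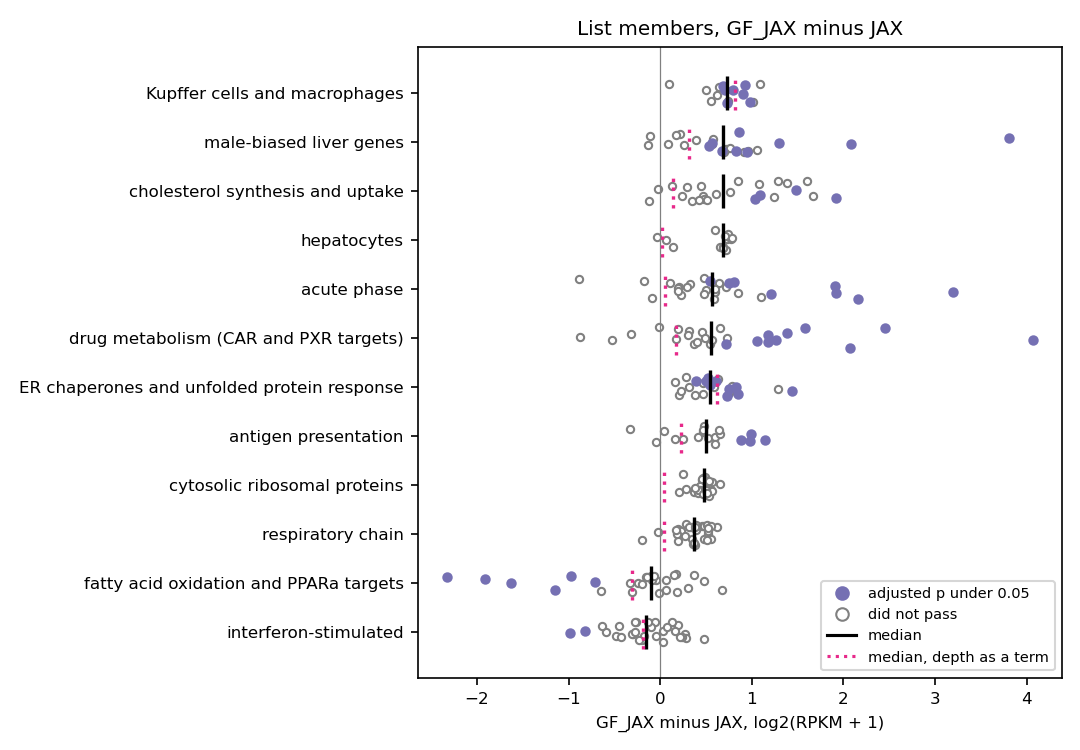
Differences GF_JAX minus JAX on log2(RPKM + 1) (x axis) of the tested members of 12 lists (1 point per gene, filled where adjusted p was under 0.05), with each list's median (black line) and its median with depth as a term (dotted line). The ER and Kupffer medians are 0.62 and 0.81 with depth as a term, where no gene of either list passes. Those of ribosomal, respiratory and hepatocyte genes are 0.045, 0.038 and 0.019. Depth differed between the groups, so that fit does not separate its part from that of group.

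The Taconic pair serves as a second instance of recipients against conventional mice. Of the 536 genes 257 were also called in GF_TAC minus TAC in the same direction, 138 higher and 119 lower (47.9% of the 536 and 6.24% of the 4119), and 9 were called in the opposite one. Of all genes tested 35.6% were called in that pair, 17.3% higher and 18.3% lower. The test of the difference between both pairs passed for 72 of the 536 and for 1.75% of all genes tested. The 536 were chosen by GF_JAX minus JAX, which is part of that test, so a higher share among them follows from the choice. Cyp2b10 (4.07 with Jackson and 4.39 with Taconic microbes, test of the difference adjusted p = 0.874), Thrsp (2.0 and 2.02, 0.989), Cidec (-3.89 and -2.91, 0.469) and H2-Aa (1.15 and 1.19, 0.959) did not pass that test. The test did pass for Selenbp2, at 2.09 with Jackson and 0.25 with Taconic microbes (difference 1.83 ± 0.29, SE, adjusted p = 0.00384). Saa1 was at 2.16 and -0.48 (2.64 ± 0.62, 0.0397), Lepr at -1.89 and -0.48 (-1.41 ± 0.26, 0.0105) and Tlr12 at -2.08 and -0.53 (-1.55 ± 0.29, 0.0117). Soat2, which esterifies cholesterol, differed between the pairs too (Jackson pair -0.087, adjusted p = 0.58, Taconic pair 1.096, adjusted p = 0.000177), with 44.1 ± 3.58 RPKM in JAX, 41.3 ± 1.58 in GF_JAX, 26.8 ± 4.77 in TAC and 57.9 ± 5.41 in GF_TAC (difference -1.18 ± 0.14, adjusted p = 0.000596). Soat2 was picked for its small p in this test.

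**Figure D5:**
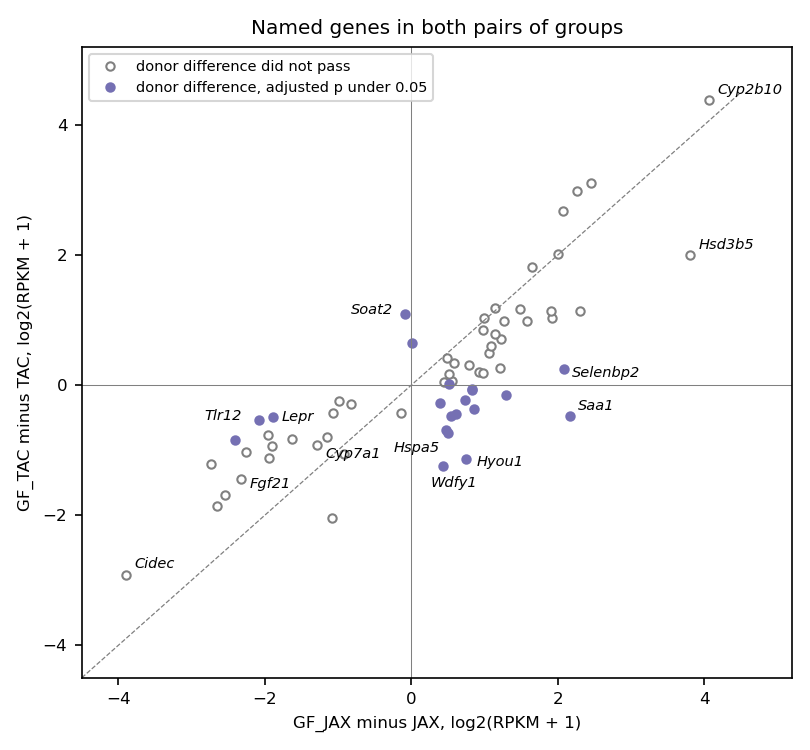
Log2 difference GF_JAX minus JAX (x axis) against GF_TAC minus TAC (y axis) for the 67 named genes, filled where the test of the difference between them gave adjusted p under 0.05, with the line of equal differences dashed. Cyp2b10 and Cidec lie far from 0 on both axes, whereas Hspa5 (0.50 and -0.74) and Hyou1 (0.75 and -1.14) lie on opposite sides of 0.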

How the data were processed

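Poly(A) RNA of mouse liver was sequenced from Trizol extracts with a ThruPLEX kit, per the labels. The deposited values are RPKM computed by the authors, and the submitters' processing notes name Bowtie 1.0.0, Cuffdiff 2.1.1 and the build mm9, without their roles. Duplicate removal, strand and annotation are not given in the sources used here. Of 24397 entries, 461 empty ones and 27 with names turned into date numbers were left out. Since a failed estimate may also appear as 0, such genes are called listed at 0. Differences are on log2(RPKM + 1), which understates the change of low genes.

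Genes were tested with limma 3.58.1 (trend, R 4.3.3, two-sided, Benjamini-Hochberg over 11568 genes, threshold 0.05) on the 9 libraries. The difference between both donors was an interaction contrast over 18 libraries. Every adjusted p comes from these fits. Tested on simulated data for this comparison (10934 genes), 92% of 2-fold changes were called. The simulation gave every gene the same spread and held no length bias. The share therefore does not carry over to these libraries, and a gene that did not pass may still differ.

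Count tests were not run on RPKM. In 3317 of 3961 low genes (83.7%, within 0.02 reads) the values were whole multiples of 1 read in every library, which gave the depths, with transcript lengths of the GENCODE M21 annotation (95.7% of tested genes matched by symbol). The correction for shared start positions assumes at most 2 starts per base. Every pair of the 9 libraries differed beyond sampling noise (lowest chi-square, divided by its degrees of freedom, 3.24 for 9543 genes). Python 3.11.15 with scipy 1.17.1 and matplotlib 3.10.9 served for permutations and figures.

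Named genes were the 10 largest increases and 10 largest decreases among called genes without overlap, 5 each among those also called with library type, the 6 smallest p of the donor difference, up to 3 called members of each of 39 lists, and 7 fixed genes (Cyp7a1, Cyp8b1, Nnt, Wdfy1, Entpd4, Hspa5, Lepr). Predicted, clone and Mup genes were left out of the first 3 parts of the rule and of the donor part. A few genes that the rule or the lists hold are not reported here. Other list members named were chosen after their values were seen. Members, lists and tests were chosen with earlier results of these data known. Alternatives covered the pseudocount, low-value filters, scaling, the libraries in the fit, library type, depth, quality weights, shared starts, the replicate number and each library left out.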

Additional observations from a re-analysis of the deposited data

Results flagged for a closer look

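Among the named genes 8 group values came from a library far from the others of its group, which chance alone gives in about 1 in 20 groups. In JAX these were Cyp2b10 at 4.48 RPKM in JAX 2, Cyp2c70 at 61.7 RPKM in JAX 1, Clec4f at 38.5 RPKM in JAX 2 and Lepr at 3.97 RPKM in JAX 1. In GF_JAX they were Cyp2c70 at 367 RPKM, Selenbp2 at 569 RPKM and Fmo2 at 2.82 RPKM, all in GF_JAX 3, and Hyou1 at 73.8 RPKM in GF_JAX 5. GF_JAX 3 had the lowest depth of the 9 libraries (1.34 M counted reads), and the part of depth in these values was not tested.

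For 20 named genes the difference between recipients and conventional mice was not the same with both donors, by the interaction test over 18 libraries (adjusted p under 0.05). The values are GF_JAX minus JAX less GF_TAC minus TAC, on log2. They were positive for the ER chaperones Hyou1 (1.89), Hspa5 (1.24), Manf (1.22), Pdia4 (1.16), Hsp90b1 (1.02), Calr (0.96), Pdia6 (0.90) and Dnajc3 (0.67). The same sign held for the acute phase gene Saa1 (2.64) and for Selenbp2 (1.83), Cyp7b1 (1.45), Ugt2b1 (0.89) and Dgat2 (0.50). The difference was negative for Gal3st1 (-1.57), Tlr12 (-1.55), Lepr (-1.41) and Soat2 (-1.18). Substrain markers were Wdfy1 (1.68), Nnt (1.06) and Entpd4 (-0.63). JAX, TAC and both recipient groups enter this test, so a difference between the vendors' mice and one between the donors cannot be told apart in it. Library type and depth were not terms in the test. Named genes were in part picked by this test or by GF_JAX minus JAX, which is part of it.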

How the results depend on the processing

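The count of 536 genes was 340 with no filter on low values, 830 after rescaling to a common sum, 311 with library type as a term, 1366 with library quality weights and 17 with depth in the fit. With all 22 libraries in the fit it was 1675, and without GF_JAX 1 and GF_JAX 4 it was 3329. It ranged from 129 to 686 with 1 library left out (GF_JAX 1 670, GF_JAX 4 686). A pseudocount of 0.1 gave 484, an RPKM filter of 5 gave 494, median-ratio size factors 529, the correction for shared start positions 597 and GF_JAX 1 and GF_JAX 4 alone against JAX 718. The donor difference, 203 genes, was 392 after rescaling and 112 with the replicate block. Of 59 named genes called, 29 were called whichever library was left out, 33 with library type and 11 with depth as a term. The direction of Entpd4 (0.015) turned after rescaling (-0.20), without GF_JAX 1 and GF_JAX 4 (-0.017), with depth (-0.044) and with shared starts (-0.0029), and ran from -0.085 to 0.078 with 1 library left out. The causes were not tested. With the replicate number as a block 194 genes passed. The numbers do not pair the libraries: deviations of same-numbered JAX and GF_JAX libraries correlated at -0.046, 0.15, -0.039 and 0.029, and no JAX library correlated best with its own number. Depth was 1.34 to 3.76 M counted reads, and detection by expression level was not tested.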
